A study of Mus musculus with 16 samples.

Results

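The agonist response difference between ERα-short and WT dendritic cells is, for each gene, the change that a TLR7 and TLR9 agonist pair brought in ERα-short cells minus the change it brought in WT cells. It was computed for all 24001 gene rows of the deposited expression table, from 8 of the series' 16 RNA-seq libraries, those of the arms without surgery. Of these rows, 11346 reached the expression filter and were tested, and all members below are described by how the 2 responses differed. The cells were bone marrow-derived dendritic cells of NZM2410 mice, an inbred strain that develops lupus, grown in 20 ng/ml GM-CSF with 10 ng/ml IL-4 and taken on day 7. The 4 groups of 2 libraries each were KO agonist, KO vehicle, WT agonist and WT vehicle. KO stands for the arm that the source labels call ERKO Shrt, mice whose Esr1 allele gives a truncated estrogen receptor α called ERα short, and WT mice carried the intact receptor. Agonist libraries had received loxoribine, an agonist of TLR7, together with CpG (1 μg/ml), an agonist of TLR9, for 24 h. Loxoribine is labelled at 200 μmol/ml, and no other source was at hand to check that unit. All 4 groups are labelled as having had no surgery, and the labels give no sex or age for them.

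The labels disagree on the allele of the KO arm, and this touches every value below. The genotype tag and description of the KO vehicle libraries name Esr1(tm4.2Ksk), an allele without ERα activity, while those of the KO agonist libraries name Esr1(tm1Ksk), the ERα short allele. By the source labels both groups are one arm, and that grouping is used here; by the genotype labels, the allele and the agonists cannot be told apart in KO. No value here checks which label is right. Esr1 itself had 2.01 and 1.77 FPKM in KO agonist and 2.47 and 2.57 FPKM in KO vehicle, against 0.937 and 0.684 FPKM in WT agonist and 1.21 and 1.38 FPKM in WT vehicle. FPKM, fragments per kilobase of transcript scaled to the mapped fragments of the library, sums all Esr1 transcripts and does not tell the alleles apart. The Esr1 response was -0.29 ± 0.08 in KO and -0.35 ± 0.08 in WT on the log2(FPKM + 1) scale (estimate ± standard error, 2 libraries per group), and the difference of 0.06 ± 0.11 did not pass the test (limma adjusted p = 0.807).

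The FPKM of a library summed to between 481738 and 522287, with the 2 WT agonist libraries highest, and its depth, estimated from the steps between low values, was 36.7 to 43.8 M fragments. The labels speak of triplicates, and whether the pair in a group stems from separate mice or cultures is not stated, so each test measures the spread within pairs that may be technical repeats. Of 15 dendritic cell markers, 9 were at 1 FPKM or more in every library and Siglech, a plasmacytoid marker, was at 0 in all. Their sum was higher in KO, at 5353 to 5643 FPKM over the KO libraries and 4813 to 4860 FPKM over the WT libraries. Most of it was Cd74. With vehicle 7 of the 10 tested were higher in KO and 2 lower, beside 31.5% and 28.7% of all tested genes. All 15 macrophage and monocyte markers were also at 1 FPKM or more in every library, and their sum was lower in KO. It was 1742 and 1802 FPKM in KO agonist and 1600.1 and 1606 FPKM in KO vehicle, against 2513 and 2435 FPKM in WT agonist and 2404 and 2364 FPKM in WT vehicle. The sum hides its members: with the agonists 2 of the 15 rose and 10 fell in KO, and 4 rose and 11 fell in WT. Cd14, which rose in both arms, had 834 and 842 FPKM in KO agonist and 534 and 525 FPKM in KO vehicle, against 728 and 721 FPKM in WT agonist and 367 and 374 FPKM in WT vehicle. The complement gene C1qa had 2.43 and 2.25 FPKM in KO agonist and 3.09 and 3.45 FPKM in KO vehicle, against 92.1 and 93.01 FPKM in WT agonist and 115 and 110.3 FPKM in WT vehicle. Of 17 neutrophil markers 6 reached 1 FPKM in every library, and the sum of all was 2239.5 to 2322 FPKM over the KO libraries and 2431.5 to 2498 FPKM over the WT libraries. Most of that sum was Chil3, at 1929 to 2062 FPKM in KO and 2026 to 2094 FPKM in WT. The collagenase Mmp8 was lower in KO (54.8 to 87.2 FPKM, against 160 to 231 FPKM in WT), and Camp was higher in KO with each treatment, so neutrophil markers did not go one way. None of 12 B cell markers and 0 of 15 T and NK cell markers reached 1 FPKM in every library. The part of cell composition in the differences below was not tested, and in bulk RNA fewer cells of a type and less RNA per cell cannot be told apart.

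TLR7 and TLR9 sit in endosomes, bind single-stranded RNA and unmethylated CpG DNA, and signal through MyD88 to NF-kB, AP-1 and interferon regulatory factors. In dendritic cells this raises cytokines, chemokines, co-stimulatory molecules and the feedback inhibitors of the same pathway. Estrogen receptor α is a ligand-activated transcription factor that also interacts with NF-kB and AP-1 in other cells.

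The response differed between KO and WT in 792 of the 11346 genes tested (6.98%), by the interaction term of a limma fit with Benjamini-Hochberg adjusted p under 0.05. On the values as deposited, 262 genes had a more positive response in KO (2.31%) and 530 a more negative one (4.67%). That split depends on the scaling: with every library brought to the same FPKM sum, 792 genes were more positive and 266 more negative, and with a median-ratio scaling 284 and 457 were. The median over all tested genes moved from -0.01 to 0.06 on the log2 scale between the deposited values and equal sums. No called gene changed sign under either scaling, and 255 of the 262 and 265 of the 530 passed the test in the same direction in all 3. Each count also rested on single libraries. More positive and more negative genes numbered 142 and 291 without KO vehicle 1, 162 and 336 without KO vehicle 2, 146 and 285 without WT vehicle 1, 141 and 292 without WT vehicle 2, and 155 and 330 without WT agonist 2. The size of the difference was mostly small. Past 0.5 log2 units lay 34 more positive and 47 more negative genes, and past 1 log2 unit 5 and 1. The scaling turned the split past 0.5 log2 units as well, to 78 and 38 with equal sums, while median ratios gave 36 and 43.

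**Figure D1:**
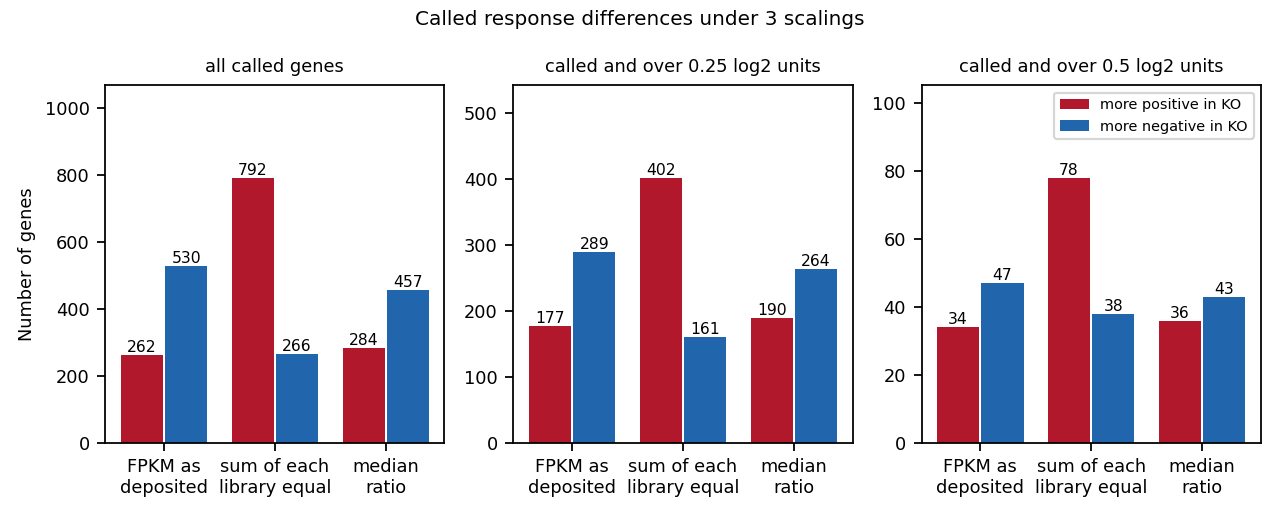
Number of genes whose agonist response was called more positive (red) or more negative (blue) in KO than in WT, under the deposited FPKM, equal library sums and median-ratio scaling, for all called genes and for those past 0.25 and 0.5 log2 units. With equal sums 792 genes were more positive and 266 more negative, the other way round from the 262 and 530 of the deposited values. Past 0.5 log2 units the deposited values gave 34 and 47, equal sums 78 and 38, and median ratios 36 and 43.

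By direction in each arm, most of the 792 genes responded to the same side in KO and WT and differed in size. The largest class, 313 genes, rose in both arms and rose less in KO (184 of them under all 3 scalings). In 121 genes both arms fell and KO fell less (114 under all 3 scalings). Larger responses in KO were fewer: 41 genes rose more and 61 fell more. With equal sums the order changed: 185 genes rose less and 323 fell less in KO, and 79 rose more and 21 fell more. A response that passed the test in WT and not in KO was found for 84 genes that rose and 49 that fell in WT, and the reverse for 30 genes that rose and 47 that fell in KO. In that order, equal sums gave 30, 238, 103 and 22 genes. Among the strongest responders, the 145 genes whose mean response over both arms was a rise of over 2-fold, 60 rose less in KO and 13 rose more. Of the 70 whose mean response was a fall of over 2-fold, 13 fell less in KO and 3 fell more. Over all tested genes 4.67% were more negative and 2.31% more positive. The counts of strong responders are given for the deposited values only. For comparison, the agonists raised 25.9% and lowered 25.3% of all tested genes in KO (51.3% in all), and raised 30.8% and lowered 27.1% in WT (57.9%).

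**Figure D2:**
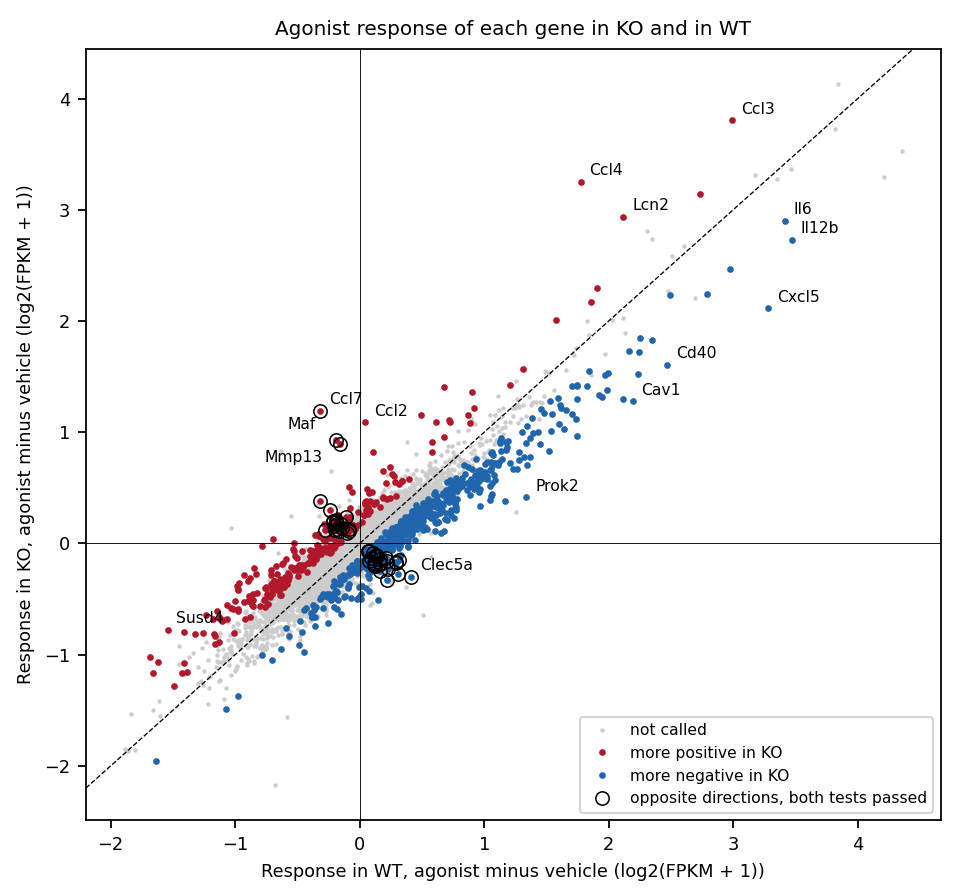
Agonist response of each tested gene in KO (y axis) and in WT (x axis), both as log2(FPKM + 1) with agonist minus with vehicle; red and blue points are called more positive and more negative in KO, grey points are not called, circles mark opposite responses, and the dashed line marks equal responses. Ccl7, Maf and Mmp13 sit above zero in KO and below zero in WT, and Cxcl5, Cd40 and Il12b lie below the dashed line among genes that rose in both arms.

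Among genes that passed the test, chemokines held the largest differences to either side. The monocyte attractants Ccl7 and Ccl2, which act on the receptor Ccr2 and are neighbours on chromosome 11, rose in KO, while in WT Ccl7 fell and Ccl2 did not pass the test. Ccl7 (chromosome 11, 82045712 to 82047525, mm10) had 20.1 and 20.4 FPKM in KO agonist and 8.03 and 8.60 FPKM in KO vehicle, against 59.3 and 55.8 FPKM in WT agonist and 74.0 and 70.0 FPKM in WT vehicle. All 4 KO libraries lay below all 4 WT libraries, and the agonist libraries moved towards each other. It rose by 1.19 ± 0.04 in KO and fell by 0.32 ± 0.04 in WT, a difference of 1.51 ± 0.06 (limma adjusted p = 2.65e-06). Ccl2 (chromosome 11, 82035577 to 82037452) had 205 and 199 FPKM in KO agonist and 94.2 and 95.1 FPKM in KO vehicle, against 315 and 297 FPKM in WT agonist and 295 and 299 FPKM in WT vehicle. The WT agonist and WT vehicle libraries overlapped, while those of KO did not. The difference was 1.05 ± 0.04 (limma adjusted p = 2.65e-06), and both calls remained in all 8 fits that left out 1 library.

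The chemokines Ccl4 and Ccl3, which attract T cells, NK cells and monocytes, rose in both arms and more in KO. Ccl4 had 252 and 234 FPKM in KO agonist and 25.3 and 23.9 FPKM in KO vehicle, against 208 and 199.8 FPKM in WT agonist and 52.1 and 66.3 FPKM in WT vehicle. With agonist both KO libraries were above both WT libraries, and with vehicle both were below. The difference was 1.47 ± 0.15 (limma adjusted p = 0.00387). Ccl3 had 845 and 772 FPKM in KO agonist and 54.8 and 58.9 FPKM in KO vehicle, against 845 and 838 FPKM in WT agonist and 99.5 and 110.4 FPKM in WT vehicle. The agonist libraries of both arms were at like levels, and the arms were apart with vehicle (difference 0.81 ± 0.08, limma adjusted p = 0.000679). The annotated span of Ccl4 (chromosome 11, 83648624 to 83664683) overlaps that of Ccl3 (83647843 to 83649378), so reads of the 2 genes may not be fully separated. Ccl22, an IL-4-induced chemokine, was listed at 0 in both KO agonist libraries while no other library was under 1568 FPKM. Those zeros were taken as missing and its difference was not tested.

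Of 11 CC chemokines tested, 4 were more positive in KO, those named above, and 3 more negative, with a median difference of 0.28 against -0.01 over all tested genes. With equal sums the counts were 5 and 2, beside 792 more positive and 266 more negative of all 11346 genes tested. The equal-sums counts of the lists below stand beside those same 792 and 266 genes. On the deposited values 2.31% of all tested genes were more positive and 4.67% more negative. The 3 more negative ones were Ccl17 (-0.31), a Ccr4 ligand made by IL-4-treated dendritic cells, the T cell attractant Ccl5 (-0.30) and the eotaxin Ccl24 (-0.19). Ccl5 had 9594 and 9504 FPKM in KO agonist and 7599 and 8227 FPKM in KO vehicle, against 6273 and 6791 FPKM in WT agonist and 4337 and 4417 FPKM in WT vehicle. It rose in both arms, and every KO library exceeded every WT library.

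Among CXC chemokines the neutrophil attractant Cxcl5 (chromosome 5, 90759298 to 90761625) had the most negative difference of all genes that passed the test. It had 23.9 and 27.0 FPKM in KO agonist and 5.04 and 5.15 FPKM in KO vehicle, against 155 and 158 FPKM in WT agonist and 15.3 and 15 FPKM in WT vehicle. Both arms rose, by 2.12 ± 0.05 in KO and 3.28 ± 0.05 in WT, and KO stayed below WT in both treatments (difference -1.17 ± 0.07, limma adjusted p = 2.68e-05). Its neighbour Cxcl3, a ligand of the same receptor Cxcr2, went to the other side. Cxcl3 had 1495 and 1505 FPKM in KO agonist and 316 and 294 FPKM in KO vehicle, against 3179 and 3110.0 FPKM in WT agonist and 816 and 862 FPKM in WT vehicle. Its rise was larger in KO by 0.39 ± 0.05 (limma adjusted p = 0.00193). Cxcl1, of the same cluster, had 359 and 319 FPKM in KO agonist and 27.7 and 29.1 FPKM in KO vehicle, against 465 and 471 FPKM in WT agonist and 18.5 and 25.9 FPKM in WT vehicle, and its difference of -0.83 ± 0.23 missed the test (limma adjusted p = 0.117). In all, 1 of 11 CXC chemokines passed to each side, or 3 more positive and 1 more negative with equal sums. Beside 2.31% more positive and 4.67% more negative genes over all tested, counts of 1 are not read as a trait of the list.

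**Figure D3:**
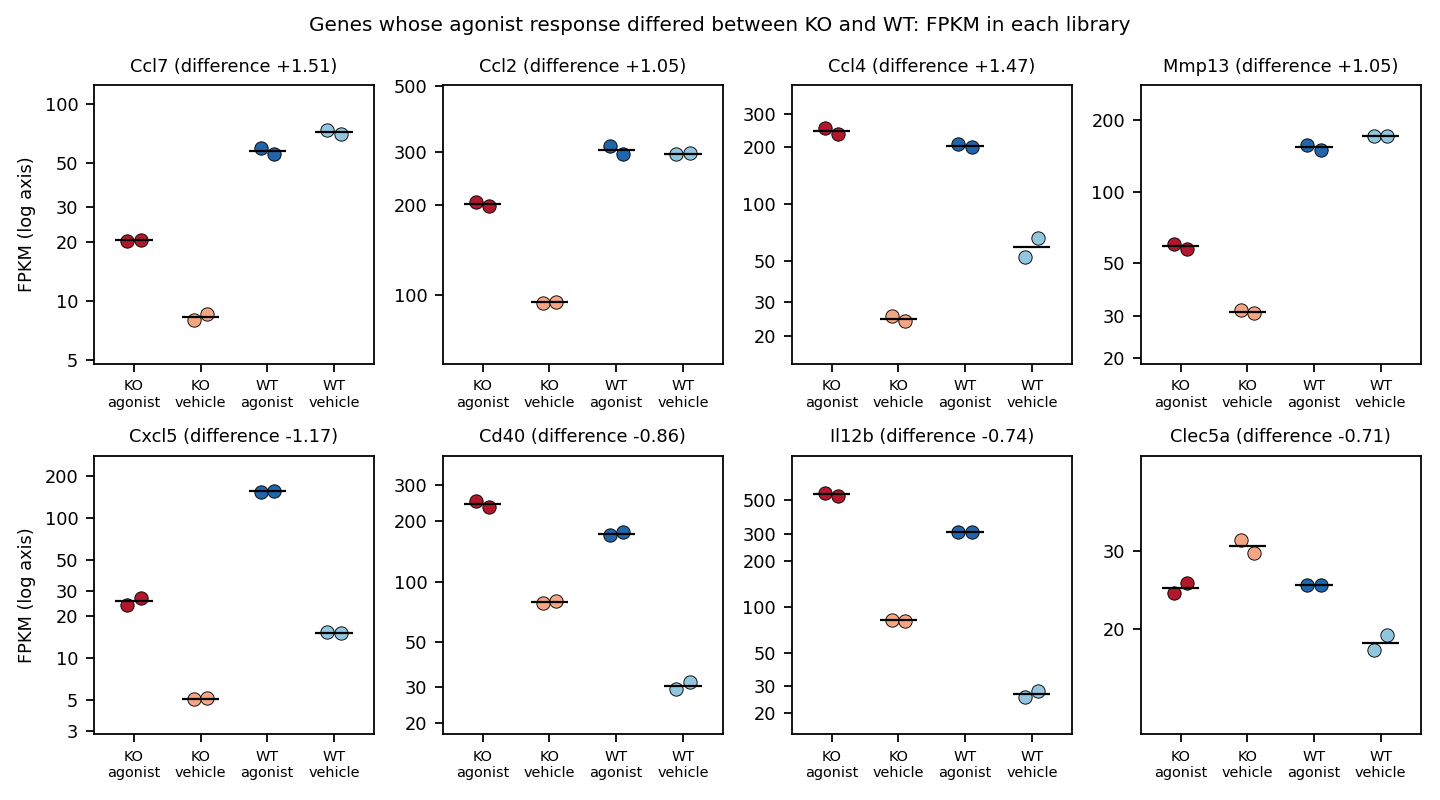
FPKM in each of the 8 libraries (points, 2 per group; bars, group means; log axes) for 8 genes, with KO agonist, KO vehicle, WT agonist and WT vehicle from left to right and the response difference in log2(FPKM + 1) in each title. Ccl7 and Mmp13 go up with agonist in KO and down in WT, Clec5a goes the other way, and Cxcl5, Cd40 and Il12b go up in both arms and less in KO.

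Genes of dendritic cell maturation, the co-stimulatory and migration program that TLR signals switch on, had more negative differences in KO in 16 of 22 genes and a more positive one in 0, with a median of -0.26. With equal sums 14 were more negative and 1 more positive, beside 266 and 792 of the 11346 genes tested. Over all tested genes 4.67% were more negative and 2.31% more positive on the deposited values. In 14 of the 16, the gene rose in both arms and rose less in KO; the other 2 were Tnfrsf9, which fell in both, and Relb, which fell in KO only. Cd40 (chromosome 2, 165055614 to 165071654), the receptor through which T cells license dendritic cells, had 252 and 234 FPKM in KO agonist and 78.4 and 79.7 FPKM in KO vehicle, against 171 and 175 FPKM in WT agonist and 29.2 and 31.6 FPKM in WT vehicle. Every KO library was above the WT libraries of the same treatment, and the rise was 1.61 ± 0.04 in KO and 2.47 ± 0.04 in WT (difference -0.86 ± 0.06, limma adjusted p = 6.45e-05). Fscn1, the actin-bundling protein of mature dendritic cells, had 1324 and 1264 FPKM in KO agonist and 642 and 646 FPKM in KO vehicle, against 741 and 776 FPKM in WT agonist and 277 and 283 FPKM in WT vehicle (difference -0.43). Here too KO was the higher arm in both treatments.

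Further members with smaller rises in KO were Marcksl1 (-0.55), the IL-2 receptor chain Il2ra (-0.43), the adhesion molecule Icam1 (-0.31), the B7 ligands Cd80 (-0.27) and Cd86 (-0.18), and Ccr7 (-0.25), the receptor that guides dendritic cells to lymph nodes. Cd83, another maturation marker, had a difference of -0.01, and the inhibitory ligand Cd274 had -0.08; neither passed the test. Over the 22 genes, 16 were higher in KO than WT with vehicle and 14 with agonist, beside 31.5% of all tested genes that were higher in KO with vehicle and 27.2% with agonist. Called in either direction were 60.3% and 54.8%.

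Cytokines of the interleukin and growth factor list had 6 more negative and 2 more positive differences among 20 tested, or 5 and 4 with equal sums. All tested genes held 4.67% and 2.31% on the deposited values. Il12b (chromosome 11, 44400063 to 44414677), the p40 chain shared by IL-12 and IL-23, had 555 and 532 FPKM in KO agonist and 81.7 and 80.6 FPKM in KO vehicle, against 306 and 309 FPKM in WT agonist and 25.6 and 28.1 FPKM in WT vehicle. KO was above WT in both treatments, and the rise was 2.73 ± 0.04 in KO and 3.47 ± 0.04 in WT (difference -0.74 ± 0.05, limma adjusted p = 0.00011). Il6, an inflammatory and B cell cytokine, had 216 and 194 FPKM in KO agonist and 26.5 and 26.5 FPKM in KO vehicle, against 192 and 189 FPKM in WT agonist and 16.3 and 17.5 FPKM in WT vehicle. The arms differed with vehicle, and with agonist the gap of 0.11 did not pass the test. The difference was -0.51 ± 0.07 (limma adjusted p = 0.00212).

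Il1b, the main secreted IL-1, had 1111 and 1078 FPKM in KO agonist and 113 and 108 FPKM in KO vehicle, against 702 and 682 FPKM in WT agonist and 31.0 and 42.7 FPKM in WT vehicle. Its difference was larger than that of Il12b but less certain, and it missed the test (-0.91 ± 0.21, limma adjusted p = 0.0751). Tnf, the founding member of its cytokine family, had 175 and 153 FPKM in KO agonist and 15.4 and 14.6 FPKM in KO vehicle, against 167 and 165 FPKM in WT agonist and 11.3 and 17.6 FPKM in WT vehicle, with a difference of -0.10 ± 0.29 (limma adjusted p = 0.891). WT vehicle 2 was above WT vehicle 1 in Il1b, Tnf, Cxcl1, Ccl4 and Lcn2. Il23a, the other chain of IL-23, had a difference of -0.52 that was called in 2 of the 8 fits without 1 library. The 2 more positive genes were Csf1 (0.25), the macrophage growth factor, which fell in both arms, and Csf2 (0.40), the gene of GM-CSF. Csf2 stayed under 1 FPKM in all 8 libraries, at 0.360 and 0.329 FPKM in KO agonist and 0.0761 and 0.0765 FPKM in KO vehicle, against 0 and 0.0245 FPKM in WT agonist and 0.0245 and 0.116 FPKM in WT vehicle, and it entered the test through ovariectomized libraries. Its call remained in 1 of the 8 fits without 1 library and was lost with a pseudocount of 5 FPKM.

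In the TNF superfamily 3 of 11 genes were more negative in KO and 0 more positive, beside 4.67% and 2.31% of all tested genes, with the same counts under equal sums. They were the co-stimulatory ligands Cd70 (-0.82) and Tnfsf4 (-0.39), also called OX40 ligand, and Tnfsf15 (-0.69). Cd70 had 7.74 and 7.32 FPKM in KO agonist and 2.61 and 2.33 FPKM in KO vehicle, against 7.96 and 8.30 FPKM in WT agonist and 1.10 and 1.12 FPKM in WT vehicle. KO was higher with vehicle, and with agonist the gap of -0.10 did not pass the test. Tnfsf15 had 47.0 and 44.9 FPKM in KO agonist and 25.5 and 25.2 FPKM in KO vehicle, against 28.4 and 29.1 FPKM in WT agonist and 9.15 and 9.62 FPKM in WT vehicle, with KO the higher arm in both treatments.

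NF-kB subunits and the feedback genes that NF-kB itself induces had 16 more negative differences among 25 and 1 more positive, with a median of -0.20. With equal sums these counts were 11 and 1, beside 266 and 792 of the 11346 genes tested. As deposited, 4.67% of all tested genes were more negative and 2.31% more positive. Zc3h12c (-0.63) and Zc3h12a (-0.45), of the Regnase family of RNA-degrading enzymes, Nfkbiz (-0.51), the inducible nuclear IκB protein, and Irak3 (-0.41), a brake on MyD88 signalling, had the largest. Nfkbiz had 47.1 and 44.0 FPKM in KO agonist and 7.44 and 7.36 FPKM in KO vehicle, against 41.8 and 40.4 FPKM in WT agonist and 4.35 and 4.34 FPKM in WT vehicle. KO exceeded WT by 0.65 with vehicle and by 0.15 with agonist. The inhibitors Nfkbia (-0.24), Nfkbie (-0.30) and Tnfaip3 (-0.21) and the subunits Nfkb1 (-0.15), Nfkb2 (-0.24) and Rela (-0.20) lay to the same side. Socs1, a brake on cytokine signalling, was the exception: it had 25.04 and 26.7 FPKM in KO agonist and 11.6 and 11.3 FPKM in KO vehicle, against 39.4 and 40.2 FPKM in WT agonist and 22.6 and 24.9 FPKM in WT vehicle. Its rise was larger in KO by 0.39 ± 0.06 (limma adjusted p = 0.00725). Socs3 (0.07) and Zfp36 (-0.01) did not pass the test.

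RefSeq promoter windows, 250 bases before to 50 after each annotated start (GRCm38.p6, the build also named mm10, of the C57BL/6J reference and not of NZM2410), were searched on both strands for the NF-kB letters GGG and TTTCC with any 2 bases between them. They occurred in 1.63% of all windows. By gene, 18 of the 415 more negative genes with a window held them (4.34%), as did 3 of 192 more positive genes (1.56%) and 188 of 9115 tested genes (2.06%). A match is a description of the letters, and the letters were chosen with the results known. The matches of 7 more negative and 3 more positive genes are shown with 10 bases to each side, read on the strand that carries the letters, which are in capitals. They are given to set the 2 groups of sequences side by side. All 3 more positive genes are shown, while the 7 were selected from the 18 more negative genes without a fixed rule. Casp4 (-0.40), Ahrr (-0.30) and Slc6a12 (-0.25) also hold the letters and are not shown.
Il6 (more negative, chr5:30013060-30013089, plus strand): tatcaaatgtGGGATTTTCCcatgagtctc
Tnfrsf9 (more negative, chr4:150927946-150927975, plus strand): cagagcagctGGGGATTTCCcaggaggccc
Traf3 (more negative, chr12:111166350-111166379, plus strand): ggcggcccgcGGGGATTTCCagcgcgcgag
Nfkbia (more negative, chr12:55492657-55492686, plus strand): gtcaggcgcgGGGAATTTCCaagccagtca
Nfkb2 (more negative, chr19:46304716-46304745, plus strand): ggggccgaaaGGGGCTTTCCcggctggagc
Tnfaip3 (more negative, chr10:19015403-19015432, plus strand): ttgccaacagGGGGATTTCCgatggaaatt
B2m (more negative, chr2:122147551-122147580, minus strand): aggttacaaaGGGACTTTCCcattttcagt
C3ar1 (more positive, chr6:122856152-122856181, plus strand): tgcacaggaaGGGCCTTTCCatgagtcacc
Cxcl3 (more positive, chr5:90786018-90786047, plus strand): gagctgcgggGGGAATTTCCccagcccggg
Csf1 (more positive, chr3:107760604-107760633, plus strand): ctggcccctaGGGACTTTCCctcaaggccc

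Il6, Nfkbia, Nfkb2 and Tnfaip3 are well-known NF-kB targets, but the genes shown were selected, so this does not describe all more negative genes with a match. Every sequence shown was picked by its core letters, so those letters cannot set more positive and more negative genes apart. Of the 7 more negative genes shown, Traf3, Tnfaip3 and B2m did not pass the test with equal sums, and B2m passed it in 0 of 8 fits without 1 library.

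**Figure D4:**
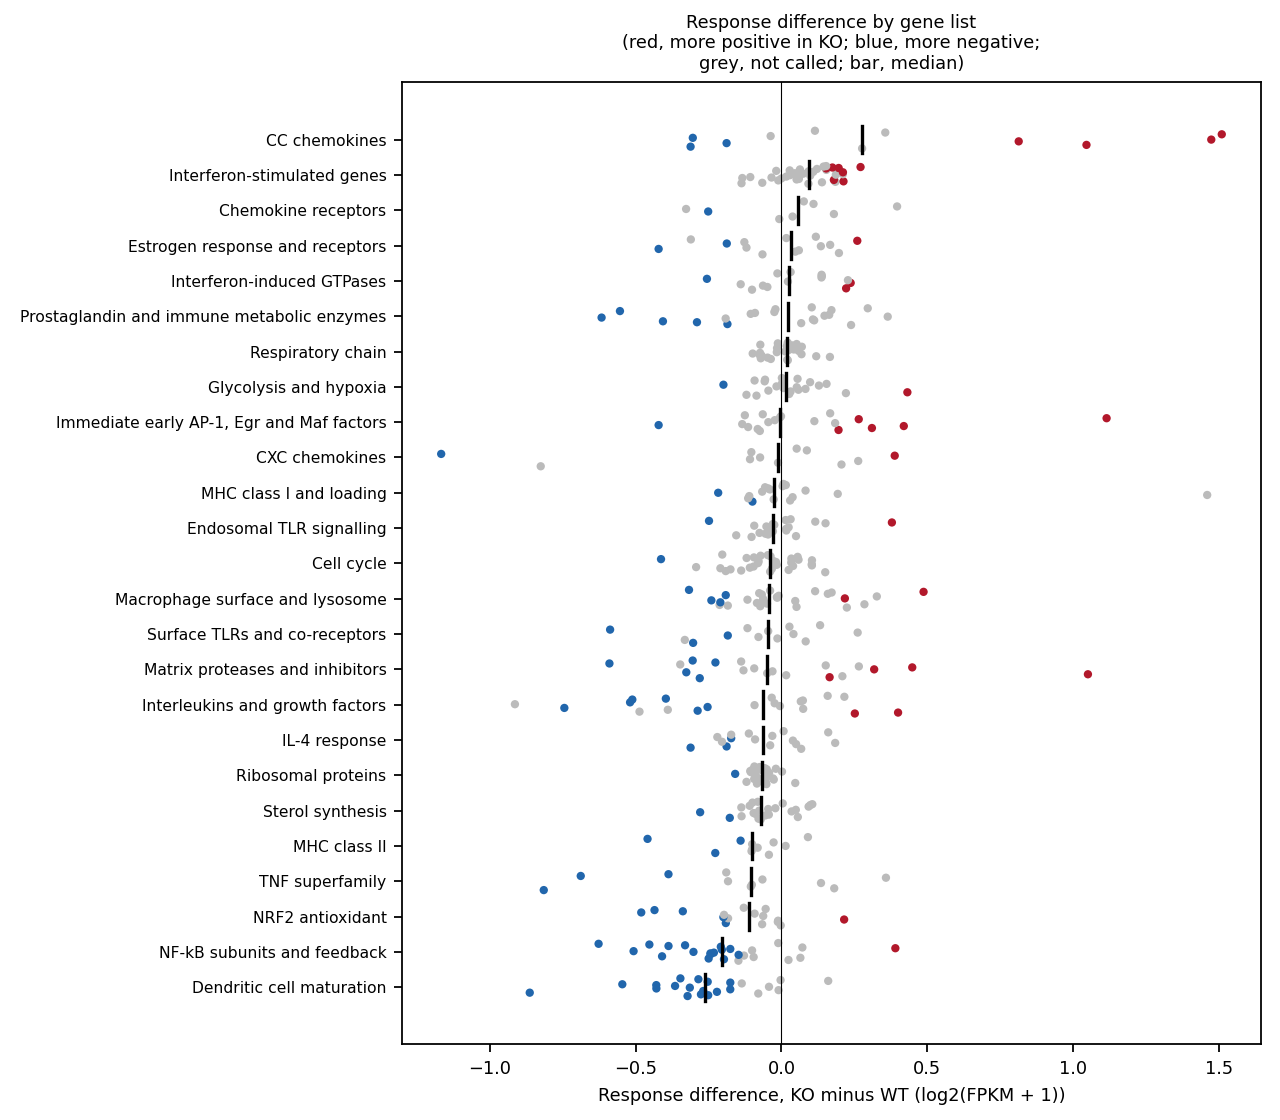
Response difference (KO minus WT, log2(FPKM + 1), x axis) of the tested members of each gene list (points; red, more positive in KO; blue, more negative; grey, not called) with the list's median (bar). Dendritic cell maturation and NF-kB lists have medians of -0.26 and -0.20, CC chemokines 0.28, and interferon-stimulated genes 0.09.

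Interferon-stimulated genes, the antiviral program that type I interferon induces, showed small differences that passed the test only to the positive side: 7 of 38 were more positive in KO and 0 more negative, with a median of 0.09. With equal sums 18 of 38 were more positive and 0 more negative. Over all 11346 tested genes 2.31% were more positive as deposited, and 792 were with equal sums. Usp18, which dampens interferon receptor signalling, had 74.8 and 69.5 FPKM in KO agonist and 75.7 and 77.5 FPKM in KO vehicle, against 53.5 and 53.8 FPKM in WT agonist and 68.2 and 69.8 FPKM in WT vehicle. It fell in WT, and the KO change of -0.09 did not pass the test (difference 0.27 ± 0.05, limma adjusted p = 0.00939). Oas3, an RNA sensor, had 40.9 and 39.5 FPKM in KO agonist and 52.7 and 53.5 FPKM in KO vehicle, against 30.3 and 29.9 FPKM in WT agonist and 46.8 and 45.8 FPKM in WT vehicle. It fell in both arms and by less in KO (difference 0.21). The others included the interferon-activated factor Stat2 (0.20), Eif2ak2 (0.21), the kinase PKR, Trim30a (0.17) and Ifi44 (0.18). Stat2 and Eif2ak2 each passed the test in 1 of the 8 fits without 1 library. Isg15 (0.10), Ifit1 (0.06), Rsad2 (0.03) and Irf7 (0.02) did not pass it. Of 14 interferon-induced GTPases, Gbp7 (0.24) and Gbp3 (0.22) were more positive and Igtp (-0.26) more negative, called in 6, 3 and 8 of those 8 fits.

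The receptors of the agonists did not differ detectably in response on the values as deposited. Tlr7 had 12.03 and 12.9 FPKM in KO agonist and 14.3 and 14.1 FPKM in KO vehicle, against 16.8 and 16.1 FPKM in WT agonist and 20.7 and 20.9 FPKM in WT vehicle. It was lower in KO in both treatments, and the difference of 0.15 ± 0.05 missed the test (limma adjusted p = 0.134). Tlr9 had 12.8 and 12.6 FPKM in KO agonist and 16.9 and 16.04 FPKM in KO vehicle, against 8.32 and 8.39 FPKM in WT agonist and 11.8 and 11.99 FPKM in WT vehicle. It was higher in KO in both treatments, with a difference of 0.12 ± 0.05 (limma adjusted p = 0.207). With equal sums both passed the test, Tlr7 at 0.23 and Tlr9 at 0.20. Of 23 genes of endosomal TLR signalling, Tlr8 (0.38) was more positive and the adaptor Traf3 (-0.25) more negative, while Myd88 (-0.05) and Unc93b1 (0.03), the chaperone of endosomal TLRs, did not pass the test; with equal sums 3 were more positive and 0 more negative. Among surface TLRs and co-receptors, Tlr2 (-0.59), Cd14 (-0.30) and Ticam2 (-0.18) were more negative of 13, or 2 to each side with equal sums. Both lists stand beside 2.31% more positive and 4.67% more negative over all tested genes, and 1 of 23 to each side is near those shares. Traf3 was called in 4 and Ticam2 in 2 of the 8 fits without 1 library. Tlr2, the receptor of bacterial lipopeptides, had 128 and 134 FPKM in KO agonist and 78.0 and 74.4 FPKM in KO vehicle, against 104 and 102 FPKM in WT agonist and 38.5 and 40.3 FPKM in WT vehicle.

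Opposite responses, in which KO and WT each passed the test in opposite directions and so did the difference, were found in 46 genes. In 21 of them KO rose and WT fell (0.185% of tested genes), and in 25 KO fell and WT rose (0.22%). They are small: in 4 of the 46 the weaker of the 2 responses exceeded 0.25 log2 units, and 26 of the 46 were opposite under all 3 scalings. With equal sums the counts were 49 and 8, and with 1 library left out 10 to 20 and 13 to 23.

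Ccl7, Maf and Mmp13 were the largest with a rise in KO. Maf (chromosome 8, 115703253 to 115706894), a transcription factor of macrophages and of IL-10-producing cells, had 5.31 and 6.21 FPKM in KO agonist and 2.68 and 2.42 FPKM in KO vehicle, against 7.03 and 7.03 FPKM in WT agonist and 8.03 and 8.24 FPKM in WT vehicle. All KO libraries were below all WT libraries. It rose by 0.93 ± 0.06 in KO and fell by 0.19 ± 0.06 in WT (difference 1.11 ± 0.08, limma adjusted p = 0.00014). Mmp13 (chromosome 9, 7272514 to 7283333), a collagenase of bone and cartilage turnover, had 60.4 and 57.2 FPKM in KO agonist and 31.6 and 30.8 FPKM in KO vehicle, against 157 and 150.0 FPKM in WT agonist and 171 and 172 FPKM in WT vehicle. Again no KO library reached a WT one, and the difference was 1.05 ± 0.05 (limma adjusted p = 3.33e-06).

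The Mmp13 promoter is a textbook AP-1 target, and its window is shown beside that of Prok2, the prokineticin-2 gene, whose difference lay to the other side. In both, the letters TGANTCA of an AP-1 site are in capitals, 35 bases before the annotated start in Mmp13 and 67 in Prok2. These letters, searched on both strands, were found in 7.81% of all windows, in 16 of 192 more positive genes (8.33%), 47 of 415 more negative genes (11.3%) and 580 of 9115 tested genes (6.36%).
Mmp13 (chr9:7272264-7272563, plus strand): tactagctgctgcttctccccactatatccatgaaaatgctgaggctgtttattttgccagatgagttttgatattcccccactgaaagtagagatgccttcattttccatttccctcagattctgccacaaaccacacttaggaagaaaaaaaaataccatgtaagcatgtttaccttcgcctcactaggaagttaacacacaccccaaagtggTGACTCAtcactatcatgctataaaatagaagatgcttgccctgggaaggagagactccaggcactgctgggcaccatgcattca
Prok2 (chr6:99726343-99726642, minus strand): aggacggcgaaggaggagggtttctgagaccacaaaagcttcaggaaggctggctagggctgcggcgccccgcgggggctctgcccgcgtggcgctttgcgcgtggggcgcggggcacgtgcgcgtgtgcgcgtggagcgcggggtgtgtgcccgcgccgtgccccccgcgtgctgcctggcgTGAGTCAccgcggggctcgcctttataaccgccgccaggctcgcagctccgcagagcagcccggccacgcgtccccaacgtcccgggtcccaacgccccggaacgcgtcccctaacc

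Prok2 (chromosome 6, 99711299 to 99726392) had 1.02 and 0.794 FPKM in KO agonist and 0.545 and 0.323 FPKM in KO vehicle, against 6.26 and 5.15 FPKM in WT agonist and 1.51 and 1.78 FPKM in WT vehicle. It rose in both arms and less in KO, where it stayed at about 1 FPKM or less (difference -0.93 ± 0.15, limma adjusted p = 0.00598). At such levels the added 1 FPKM compresses the scale, and with a pseudocount of 0.1 FPKM the difference of -0.80 no longer passed the test. Of 19 AP-1, Egr and Maf factors, 5 were more positive (Maf, Egr3 at 0.42, Egr1 at 0.31, Jund at 0.27 and Batf at 0.20) and 1 more negative (Fos at -0.42). With equal sums 7 were more positive and 0 more negative. All tested genes held 2.31% more positive and 4.67% more negative as deposited. Egr3 was called in 4 and Egr1 in 1 of the 8 fits without 1 library. Fos, an AP-1 subunit, had 13.6 and 16.1 FPKM in KO agonist and 41.6 and 45.5 FPKM in KO vehicle, against 18.1 and 18.1 FPKM in WT agonist and 40.0 and 38.4 FPKM in WT vehicle. It fell in both arms and further in KO, and the call was lost with equal sums and remained in 3 of 8 fits without 1 library.

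The other named genes that rose in KO and fell in WT were Mesdc1 (0.41), Hs3st1 (0.40), a heparan sulfate sulfotransferase, Entpd4 (0.40), a nucleotide hydrolase, Rps15a-ps6 (0.54) and Znrd1as (0.42). Mesdc1 had 16.1 and 16.5 FPKM in KO agonist and 15.4 and 14.4 FPKM in KO vehicle, against 22.7 and 21.7 FPKM in WT agonist and 26.9 and 27.4 FPKM in WT vehicle, and its call remained in all 8 fits without 1 library. Of the other 4, Entpd4 remained in 2 and the rest in 1. These fits were judged by the difference and not by the direction in each arm. With equal sums the KO rise of Entpd4 did not pass the test. Rps15a-ps6 is a pseudogene that can share reads with its parent gene. Znrd1as is an antisense transcript, and no source used here gives the strand setting of the counting.

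In the other direction, Clec5a (chromosome 6, 40574898 to 40585805), an activating lectin receptor of myeloid cells, was the largest. It had 24.1 and 25.4 FPKM in KO agonist and 31.8 and 29.7 FPKM in KO vehicle, against 25.2 and 25.2 FPKM in WT agonist and 17.9 and 19.4 FPKM in WT vehicle. The vehicle libraries of the 2 arms did not overlap, and the agonist libraries did. It fell by 0.30 ± 0.05 in KO and rose by 0.41 ± 0.05 in WT (difference -0.71 ± 0.06, limma adjusted p = 0.000304). H2-Oa, a chain of the MHC class II peptide-loading modulator H2-O, had 11.4 and 11.4 FPKM in KO agonist and 13.0 and 12.9 FPKM in KO vehicle, against 10.1 and 10.3 FPKM in WT agonist and 8.50 and 7.83 FPKM in WT vehicle (difference -0.46). Pcx, the mitochondrial enzyme pyruvate carboxylase, had 5.69 and 5.59 FPKM in KO agonist and 6.63 and 6.37 FPKM in KO vehicle, against 11.6 and 12.1 FPKM in WT agonist and 9.69 and 9.30 FPKM in WT vehicle (difference -0.47). In these genes the 2 libraries of each group lay apart from those of the other treatment in the same arm. Calm4 (-0.55), Lsm5 (-0.47), Agap1 (-0.41), the adaptor Traf5 (-0.38) and the aldo-keto reductase Akr1c13 (-0.35) had the same pattern. With 1 library left out each of these differences stayed negative, at -0.65 to -0.45 in Calm4 and -0.39 to -0.30 in Akr1c13. Those ranges do not cover the direction in each arm. Calm4, Lsm5 and Traf5 lost their call with no filter on low values, and Calm4 also with all 16 libraries unaveraged. With equal sums the WT rise of Calm4 and of Agap1 did not pass the test, so they were not opposite there.

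The difference equals the gap between KO and WT with agonist minus the gap with vehicle, so the same 8 libraries can be read either way, and the following counts describe the called genes without testing them. They follow which gaps passed the test. In 497 of the 792 genes both gaps passed on the same side and the agonist gap was the smaller, or the vehicle gap alone passed. In 228 both passed on the same side and the agonist gap was the larger, or the agonist gap alone passed. In 67 both passed with opposite signs. The estimates can change sign outside those 67, as in Ccl4 and Clec5a, whose agonist gap did not pass. Of the first kind, KO was lower with vehicle and less so with agonist in Ccl7, Ccl2, Mmp13 and Maf, and higher with vehicle and less so with agonist in Cd40, Il12b, Fscn1 and Tlr2. Cxcl5 and Prok2 are of the second kind, since KO was lower with vehicle (gaps of -1.41 and -0.88) and further below WT with agonist (-2.57 and -1.81). With equal sums the 3 kinds held 618, 347 and 93 of 1058 called genes. Over all tested genes 60.3% passed the test of the vehicle gap and 54.8% that of the agonist gap. Errors of the vehicle gap enter the difference with the other sign, so the larger first kind is not read as a trait of the response.

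**Figure D5:**
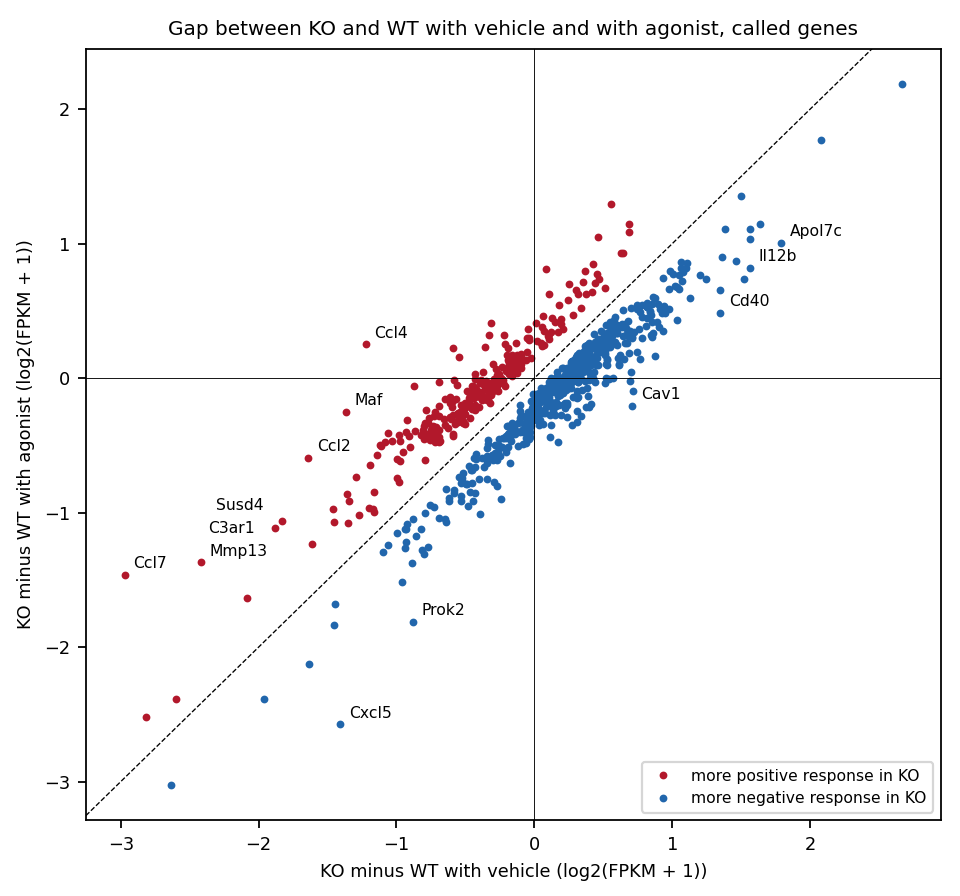
Gap between KO and WT (KO minus WT, log2(FPKM + 1)) with agonist (y axis) and with vehicle (x axis) for the 792 called genes; red, more positive response in KO; blue, more negative; the dashed line marks equal gaps. Ccl7 lies at -2.97 with vehicle and -1.46 with agonist, Cxcl5 at -1.41 and -2.57, and Cav1 at 0.71 and -0.21.

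The 6 named genes with the largest differences among those 67 were Cav1, Arhgap19, Acsl1, Zc3h12c, Irg1 and Fpr2. Cav1 (chromosome 6, 17306335 to 17341328), the coat protein of caveolae, had 24.2 and 24.4 FPKM in KO agonist and 9.42 and 9.44 FPKM in KO vehicle, against 27.7 and 28.7 FPKM in WT agonist and 5.36 and 5.40 FPKM in WT vehicle. Both arms rose, KO was higher with vehicle and lower with agonist, and the difference was -0.92 ± 0.04 (limma adjusted p = 3.58e-06). Irg1, also called Acod1, the itaconate-making enzyme of activated myeloid cells, had 869 and 849 FPKM in KO agonist and 405 and 385 FPKM in KO vehicle, against 1056 and 1029 FPKM in WT agonist and 299 and 326 FPKM in WT vehicle (difference -0.62). Acsl1, which activates long-chain fatty acids, had 215 and 216 FPKM in KO agonist and 89.4 and 82.7 FPKM in KO vehicle, against 272 and 267 FPKM in WT agonist and 66.9 and 71.4 FPKM in WT vehicle (difference -0.63). Zc3h12c and the formyl peptide receptor Fpr2 (-0.61) crossed in the same way. Arhgap19 crossed in the other: it had 2.42 and 2.58 FPKM in KO agonist and 3.30 and 3.21 FPKM in KO vehicle, against 1.87 and 1.74 FPKM in WT agonist and 4.44 and 4.23 FPKM in WT vehicle (difference 0.65).

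Apol7c (chromosome 15, 77524852 to 77533335), an apolipoprotein L family member, had the highest level with agonist in KO of the 15 named genes with the most negative differences. It had 1129 and 1095 FPKM in KO agonist and 568 and 568 FPKM in KO vehicle, against 548 and 558 FPKM in WT agonist and 162 and 167 FPKM in WT vehicle. The WT agonist level was just below the KO vehicle level (difference -0.78 ± 0.03, limma adjusted p = 3.33e-06). H2-M2, a non-classical MHC class I gene, had 186 and 186 FPKM in KO agonist and 146 and 138 FPKM in KO vehicle, against 113 and 109 FPKM in WT agonist and 49.0 and 49.1 FPKM in WT vehicle (difference -0.78 ± 0.04). It rose in both arms, and every KO library was above every WT one. The formyl peptide receptor Fpr1 (-0.71), the cysteine dioxygenase Cdo1 (-0.65) and Kctd1 (-0.64) complete the 15. MHC class II genes had 3 more negative of 11 (H2-Oa, the class II transactivator Ciita at -0.23 and H2-Eb1 at -0.14) and 0 more positive, beside 4.67% more negative over all tested genes. Of 17 MHC class I genes, H2-T22 (-0.22) and B2m (-0.10) were more negative; with equal sums no class I gene and 2 class II genes were, none more positive. H2-T22 was called in 4 and H2-Eb1 in 5 of the 8 fits without 1 library. H2-Q6, a class I gene with near-identical copies, varied between the libraries of each group, and its difference of 1.46 ± 1.13 did not pass the test.

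Among the most positive differences were also genes that fell with the agonists in WT and fell less, or not detectably, in KO. C3ar1, the receptor of the complement fragment C3a, had 17.0 and 19.3 FPKM in KO agonist and 18.2 and 18.6 FPKM in KO vehicle, against 41.5 and 39.4 FPKM in WT agonist and 71.5 and 69.2 FPKM in WT vehicle. The 2 KO groups overlapped and the 2 WT groups did not (difference 0.76 ± 0.07, limma adjusted p = 0.0004). Susd4, a complement inhibitor, had 0.487 and 0.630 FPKM in KO agonist and 1.74 and 1.60 FPKM in KO vehicle, against 2.19 and 2.32 FPKM in WT agonist and 8.38 and 8.56 FPKM in WT vehicle. It fell in both arms, and its smaller fall in KO (difference 0.77 ± 0.09) no longer passed the test with a pseudocount of 0.1 FPKM, where it was 0.43. Mertk, a receptor for apoptotic cells on macrophages, had 3.54 and 3.74 FPKM in KO agonist and 3.52 and 4.09 FPKM in KO vehicle, against 8.17 and 7.99 FPKM in WT agonist and 12.5 and 11.9 FPKM in WT vehicle (difference 0.49). Rab3il1 (0.66), the ubiquitin ligase Rnf144b (0.62), Zfp395 (0.62) and Gpr183 (0.61), the oxysterol receptor that positions dendritic and B cells, fell in both arms and less in KO.

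Other genes with a more positive response in KO rose in both arms. Lcn2, the siderophore-binding protein lipocalin-2, had 119.5 and 126 FPKM in KO agonist and 15.8 and 14.6 FPKM in KO vehicle, against 106 and 103 FPKM in WT agonist and 21.1 and 25.9 FPKM in WT vehicle. Its difference of 0.82 ± 0.12 (limma adjusted p = 0.0113) remained in 4 of 8 fits without 1 library. The zinc finger gene Zfp811 had 2.25 and 1.96 FPKM in KO agonist and 0.213 and 0.130 FPKM in KO vehicle, against 0.705 and 0.825 FPKM in WT agonist and 0.1003 and 0.111 FPKM in WT vehicle. The vehicle libraries were all near 0, and with agonist KO was above WT (difference 0.73 ± 0.10, limma adjusted p = 0.00199). The antimicrobial peptide gene Camp (0.30), whose call remained in 2 of 8 such fits, and Batf rose in both arms as well.

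Matrix proteases and their inhibitors split: of 19, Mmp13, Mmp9 (0.45), Mmp27 (0.32) and Adam8 (0.17) were more positive, and 5 were more negative, among them Mmp19 (-0.33), Timp3 (-0.30), Adam17 (-0.28) and Timp1 (-0.23). With equal sums 5 were more positive and 3 more negative. The shares over all tested genes were 2.31% and 4.67% as deposited. Mmp9, a gelatinase, had 15.7 and 17.0 FPKM in KO agonist and 9.80 and 9.70 FPKM in KO vehicle, against 53.9 and 51.8 FPKM in WT agonist and 44.4 and 44.6 FPKM in WT vehicle. It was lower in KO in both treatments, and it rose in both arms and more in KO.

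NRF2 target genes of the antioxidant response had 5 more negative and 1 more positive of 16, or 3 and 1 with equal sums. The deposited values gave 4.67% and 2.31% over all tested genes. Slc7a11, the cystine transporter, had 145 and 145 FPKM in KO agonist and 106 and 101 FPKM in KO vehicle, against 251 and 246 FPKM in WT agonist and 126 and 127 FPKM in WT vehicle (difference -0.48). Srxn1 (-0.44), the autophagy receptor Sqstm1 (-0.34), Nfe2l2 (-0.20), which encodes NRF2, and Gclc (-0.19) lay to the same side. Hmox1, heme oxygenase-1, was the exception (0.21), with 720.5 and 718 FPKM in KO agonist and 484 and 492 FPKM in KO vehicle, against 3711 and 3793 FPKM in WT agonist and 2981 and 2929 FPKM in WT vehicle. Every KO library of Hmox1 was far below the WT ones.

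Prostaglandin and immune metabolic enzymes had 5 more negative of 20 and 0 more positive, or 4 and 3 with equal sums. Besides Irg1 they were the prostaglandin E synthase Ptges (-0.55), Ass1 (-0.41), which feeds arginine synthesis, the arginase Arg2 (-0.29) and Alox5ap (-0.19). Ptges had 44.4 and 41.5 FPKM in KO agonist and 8.98 and 7.67 FPKM in KO vehicle, against 44.4 and 43.9 FPKM in WT agonist and 5.41 and 5.61 FPKM in WT vehicle. Ptgs2 (0.30) and the nitric oxide synthase Nos2 (-0.09), both strongly induced, did not pass the test. Macrophage surface and lysosome genes had 2 more positive (Mertk and Emr1, the F4/80 antigen, at 0.22) and 4 more negative (Trem2 at -0.32, Ctsk, Csf1r and Gpnmb) of 28. With equal sums the split turned to 6 more positive and 1 more negative. For both lists, the shares over all tested genes were 2.31% more positive and 4.67% more negative as deposited.

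Counts in further lists stand beside the 6.98% called over all tested genes. Of 32 ribosomal protein genes 1 was called, of 32 cell cycle genes 1 (Mki67 at -0.41), of 27 respiratory chain genes 0, of 22 glycolysis and hypoxia genes 2 and of 23 sterol synthesis genes 2. With equal sums 6 respiratory chain and 6 glycolysis genes were more positive in KO, beside 792 of all 11346 genes tested. Of 14 genes of estrogen response and receptors, Rara (0.26), a retinoic acid receptor, was more positive and Fos and Nr3c1 (-0.19), the glucocorticoid receptor, more negative, or 4 and 0 with equal sums. Rara was called in 2 and Nr3c1 in 0 of the 8 fits without 1 library, and Nr3c1 was also lost with equal sums and without the trend of the fit. The full estrogen response element, GGTCA and TGACC with any 3 bases between them, was searched on both strands. It was found in 0 of the 9115 tested genes with a window, called or not, and in 0.07% of all windows. The opening letters of this element alone, with a further base before them, were common. They were found in 15.1% of more positive, 14.5% of more negative and 14.7% of all tested genes with a window. For the interferon-stimulated response element these shares were 6.77%, 5.06% and 4%. Differences between these shares were not tested.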

How the data were processed

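RNA-seq values of 16 libraries, 2 in each of 8 groups, were used as the FPKM table that the authors deposited. In the submitters' processing notes the tools are STAR, HTSeq, DESeq2, cutadapt and FastQC and the build is mm10, without roles or versions. No source used here says which program computed FPKM. Per the labels, libraries were paired-end TruSeq; notes on the raw files record 1 mate file for some libraries of the KO and WT groups, which was not tested as a cause of any difference. FPKM values are not counts, so no count model was used. The steps between low FPKM values gave whole reads for 44.9 to 49.0% of low values within 0.1, too few to recover counts, so the depth is an estimate and no counting interval is given.

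Values were analysed as log2(FPKM + 1), in which changes of genes near 1 FPKM are understated. Genes at 1 FPKM or more in at least 2 of the 16 libraries were tested. Rows of small RNAs (1235) were left out, and 6 zeros in genes that were at 5 FPKM or more in at least 12 other libraries were taken as missing, among them Actr3 in 1 WT vehicle library and Ccl22 in both KO agonist libraries. Symbols that a spreadsheet had turned into dates (27 rows) were counted and not named. A limma fit (version 3.58.1, R 4.3.3; trended and robust empirical Bayes) held all 8 groups, with the libraries of each ovariectomized group averaged to 1 sample, so the spread comes from the groups without surgery. The contrast was KO agonist minus KO vehicle, minus the same in WT. P-values are two-sided, Benjamini-Hochberg adjusted over all tested genes, with a threshold of 0.05. The fit was also run on simulated data with known changes, and no result of that run is used here. Its noise was independent and of the size seen within pairs, so it cannot address pairs that are technical repeats.

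The text names the 15 most positive and 15 most negative called genes, the 8 largest opposite responders in each direction, up to 4 called members per gene list, the 6 largest sign changes of the KO minus WT gap, and Esr1, Tlr7 and Tlr9; predicted genes are not named, and a few genes that the rule picks are not reported here. Other list members and genes that missed the test were named after their values were seen. The members and gene lists were chosen with earlier results of these data known. Alternatives were other pseudocounts (0.1 and 5 FPKM), filters, sample sets and scalings, a fit without trend, a replicate block and leaving out each library. Promoter windows came from RefSeq (GRCm38.p6). Tables and figures were made with Python 3.11.15, pandas 2.3.3, numpy 2.4.6 and matplotlib 3.10.9.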

Additional observations from a re-analysis of the deposited data

Results flagged for a closer look

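Each result here is a difference between the KO and WT responses to the same agonists that passed the interaction test, so it is described in the report and given once more by value. The response was more positive in KO in 262 genes and more negative in 530. KO rose and WT fell in 21 genes, and KO fell and WT rose in 25.

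The most positive differences, on the log2(FPKM + 1) scale, were those of Ccl7 (1.51), Ccl4 (1.47), Maf (1.11), Mmp13 (1.05), Ccl2 (1.05), Lcn2 (0.82), Ccl3 (0.81), Susd4 (0.77), C3ar1 (0.76) and Zfp811 (0.73). Rab3il1 (0.66), Arhgap19 (0.65), Rnf144b (0.62), Zfp395 (0.62) and Gpr183 (0.61) followed. The most negative were those of Cxcl5 (-1.17), Prok2 (-0.93), Cav1 (-0.92), Cd40 (-0.86), Cd70 (-0.82), Apol7c (-0.78), H2-M2 (-0.78), Il12b (-0.74), Clec5a (-0.71) and Fpr1 (-0.71). Tnfsf15 (-0.69), Cdo1 (-0.65), Kctd1 (-0.64), Acsl1 (-0.63) and Zc3h12c (-0.63) followed.

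Further genes with opposite responses were Rps15a-ps6 (0.54), Znrd1as (0.42), Mesdc1 (0.41), Entpd4 (0.40) and Hs3st1 (0.40), which rose in KO and fell in WT, and Calm4 (-0.55), Lsm5 (-0.47), Pcx (-0.47), H2-Oa (-0.46), Agap1 (-0.41), Traf5 (-0.38) and Akr1c13 (-0.35), which fell in KO and rose in WT.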

How the results depend on the processing

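With equal library sums, 792 genes were more positive and 266 more negative, 49 and 8 were opposite (KO rise with WT fall, and the reverse), 185 rose in both arms and less in KO, 79 rose more, 323 fell less and 21 fell more. The WT response then held 2108 rises, and with agonist 4836 genes were higher and 1952 lower in KO. With no filter on low values (18220 genes tested) the counts were 132 and 272, with 12 and 15 opposite, and the 4 classes held 181, 19, 63 and 21 genes. With a pseudocount of 5 FPKM 188 genes fell less in KO, and without the trend 27 rose more and 38 fell more. The causes of these shifts were not tested. Leaving out 1 library gave 141 to 226 more positive and 285 to 430 more negative genes, the lowest without WT vehicle 2 and WT vehicle 1. It gave 10 to 20 and 13 to 23 opposite genes and 191 to 257, 21 to 36, 59 to 108 and 14 to 60 genes in the 4 classes. The Esr1 difference, not called, was 0.06, against -0.0104 with a pseudocount of 5 FPKM and from -0.0412 to 0.16 with 1 library left out. Of 108 named genes, 92 kept their side of the threshold with equal sums, 104 with median ratios, 70 with no filter and 81 to 92 with 1 library left out. Same-numbered libraries did not deviate together (r from -0.07 to 0.05), and the replicate block, which shares only a number, gave 235 and 462 genes. With 2 libraries a group, a difference that missed the test may still exist.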

Other observations

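Some genes with large differences missed the test, and they were picked after their values were seen. S100a9, a calcium-binding protein of neutrophils and monocytes, had 19.9 and 19.5 FPKM in KO agonist and 19.5 and 16.4 FPKM in KO vehicle, against 0.777 and 0.906 FPKM in WT agonist and 1.15 and 5.62 FPKM in WT vehicle. Its difference was 1.17 ± 0.80 (limma adjusted p = 0.488), and all KO libraries exceeded all WT libraries. Lars2, the mitochondrial leucyl-tRNA synthetase, had 90.2 and 113 FPKM in KO agonist and 198 and 1058 FPKM in KO vehicle, against 68.5 and 60.4 FPKM in WT agonist and 87.0 and 124 FPKM in WT vehicle. Its difference was -1.49 ± 1.22 (limma adjusted p = 0.566), with 1 KO vehicle library far above the rest. Gdf15, a stress-induced cytokine, had 4.54 and 2.39 FPKM in KO agonist and 1.84 and 1.66 FPKM in KO vehicle, against 2.33 and 2.66 FPKM in WT agonist and 3.19 and 3.01 FPKM in WT vehicle, with a difference of 0.89 ± 0.29 (limma adjusted p = 0.134).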
